A study of Mus musculus with 34 samples.

Results

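Interferon-stimulated genes (ISGs) were followed across hepatocytes and liver macrophages of mice that had or lacked Yap and Taz in the biliary epithelium, with and without toxic liver injury. The set was a list of 44 gene symbols, matched by name to the count tables of both cell types. A row was present for 43 of them in both tables, and Irgm1 was not analysed here. Of the 43 genes, 32 are best known as targets of type I interferon, 10 are GTPases strongly induced by interferon gamma, and Irf1 was kept by itself. The tables held 24951 genes for hepatocytes and 26233 for macrophages.

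The KO mice were Osteopontin-iCreERT2;Yapflox/flox;Tazflox/flox animals, in which the osteopontin promoter drives a tamoxifen-inducible Cre recombinase in biliary epithelial cells. Control mice were siblings with the same floxed alleles and no Cre. Mice of both genotypes, on a mixed B6;129P background, received tamoxifen at 1.6 mg/kg on 5 days when 7 to 8 weeks old, with 3 weeks of washout. Injury was by 1 ml/kg carbon tetrachloride (CCl4), which becomes a reactive radical in hepatocytes near the central vein, with sampling at 48 h. The 34 libraries came from 19 mice, and 15 mice gave both cell types. Hepatocytes came from 4 KO mice (numbers 13, 14, 17 and 18) and 3 control mice (12, 15 and 16) after CCl4, and from 5 KO mice (4, 5, 10, 20 and 21) and 6 control mice (2, 6, 7, 8, 9 and 19) without it. Macrophages came from 4 mice in each group, namely KO mice 13, 14, 17 and 18 and control mice 11, 12, 15 and 16 after CCl4, and KO mice 4, 5, 20 and 21 and control mice 6, 7, 8 and 9 without it. Values of single libraries are given below in that order of mouse number. The deletion was made in bile duct cells, which were not profiled, so Yap1 and Wwtr1 levels in these libraries do not check the genotype.

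Interferons are secreted proteins that act through 2 main receptor systems. Type I interferons bind the IFNAR receptor and activate a complex that includes STAT2 and IRF9 and binds the interferon-stimulated response element (ISRE) before genes of antiviral defence. Interferon gamma, made by T and NK cells, binds the IFNGR receptor, acts through the gamma-activated site (GAS) of its target genes and raises the transcription factor IRF1. The guanylate-binding proteins (Gbp genes) and the immunity-related GTPases (Iigp1, Irgm2, Igtp and Tgtp1) are among its best-known targets. Members such as Iigp1 attack the vacuoles of intracellular microbes, while others, such as Irgm2, are regulatory. The classes overlap, since many ISGs respond to either interferon. In the liver both hepatocytes and Kupffer cells, the resident macrophages, respond to interferon.

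The macrophage libraries of 3′ tags had totals of 596380 to 5128587 counts, and the hepatocyte libraries 931496 to 7535053. Levels are given as CPM, counts scaled to library size, and 3 counts equal 0.585 to 5.03 CPM in macrophages and 0.398 to 3.22 CPM in hepatocytes. The summed level of 8 hepatocyte markers was 51892 to 112970 normalised CPM in hepatocyte libraries and 368 to 29959 in macrophage libraries. The sum of 9 Kupffer cell markers was 5086 to 20922 in macrophage libraries and 6.80 to 1060 in hepatocyte libraries, each scaled within its own cell type. Sequencing files fell into 2 numbered series. The first held hepatocyte libraries of control mice 12 and 15 (CCl4) and 2, 7 and 8 (no CCl4) and macrophage libraries of control mice 11 (CCl4) and 8 (no CCl4), and every KO library was in the second. A second label states KO for 2 libraries kept as controls, those of hepatocytes from mouse 15 and macrophages from mouse 11.

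Promoters of many of these genes hold the letters of both motifs. RefSeq (GRCm38.p6) gave a promoter window, from 250 bases before the start to 50 after it, for 30 of the 43 genes. The ISRE core was searched as GAAANNGAA and the GAS as TTCNNNGAA, on both strands, and the 2 patterns can overlap. Among 32851 promoters of the genome, 8.56% held the ISRE core and 8.3% the GAS. The 30 genes had 35 windows. An ISRE core was in 15 of 25 windows of type I genes and 7 of 8 windows of GTPases, and a GAS in 5 of 25 and 5 of 8. Of the 2 Irf1 windows, 1 had a GAS and 0 an ISRE core. The windows of 3 genes that recur below are printed with the motifs in capitals, which read as the reverse complement where the match is on the other strand. These are Ifit1 (chr19:34640639-34640938, plus strand), which encodes a protein that binds RNA with non-self caps, Irgm2 (chr11:58214727-58215026, plus strand), a regulatory member of the immunity-related GTPases, and Ifi44 (chr3:151749861-151750160, minus strand), an interferon-induced cytoplasmic protein.
Ifit1: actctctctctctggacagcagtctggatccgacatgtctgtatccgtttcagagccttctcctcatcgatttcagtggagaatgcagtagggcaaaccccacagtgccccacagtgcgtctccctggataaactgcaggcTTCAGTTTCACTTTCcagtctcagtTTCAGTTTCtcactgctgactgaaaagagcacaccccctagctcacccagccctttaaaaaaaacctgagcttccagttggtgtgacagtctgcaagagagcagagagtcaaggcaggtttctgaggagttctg
Irgm2: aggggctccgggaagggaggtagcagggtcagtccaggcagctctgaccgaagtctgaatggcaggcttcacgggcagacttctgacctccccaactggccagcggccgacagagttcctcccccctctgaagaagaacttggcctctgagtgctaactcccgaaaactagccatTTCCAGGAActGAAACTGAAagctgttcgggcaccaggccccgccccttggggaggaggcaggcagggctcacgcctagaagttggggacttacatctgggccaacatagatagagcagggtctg
Ifi44: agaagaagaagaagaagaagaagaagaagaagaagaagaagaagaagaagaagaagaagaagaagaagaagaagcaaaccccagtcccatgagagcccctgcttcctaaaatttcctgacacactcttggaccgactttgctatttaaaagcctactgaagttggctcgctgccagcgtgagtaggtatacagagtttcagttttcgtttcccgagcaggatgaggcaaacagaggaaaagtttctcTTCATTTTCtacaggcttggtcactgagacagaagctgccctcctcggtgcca
Ifit1 carried 3 ISRE cores, beginning at positions -109, -103 and -84 from the start. Irgm2 carried a GAS at -75 beside an ISRE core at -64. Ifi44 had 1 ISRE core at -3 and no GAS. A match is a run of letters and not evidence of binding.

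Most ISGs were more abundant in macrophages than in hepatocytes. In a fit of all 34 libraries, averaged over the 4 conditions, 28 of the 41 genes that passed the filter on low counts were higher in macrophages and 4 were lower (edgeR quasi-likelihood test, adjusted p under 0.05). The same test called 40.9% of 12052 genes higher and 33.8% lower. The median log2 fold change, macrophages over hepatocytes, was 1.48 over the 32 type I genes and 1.14 over the 8 GTPases tested, against 0.14 over all genes. Type I genes were higher in 22 cases and lower in 3, and GTPases higher in 5 and lower in 1. Gbp6 and Tgtp1 did not pass the filter, with at most 4.69 normalised CPM in any hepatocyte library and 2.39 in any macrophage library.

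**Figure D1:**
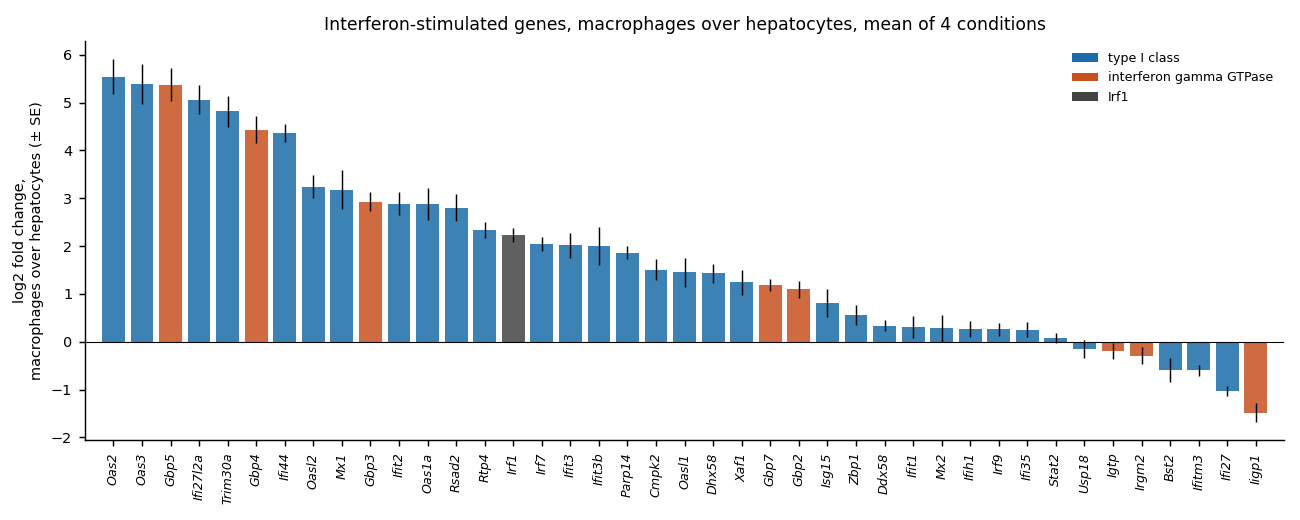
Bars show the log2 fold change of each of the 41 tested genes, macrophages over hepatocytes, averaged over 4 conditions, with its standard error, coloured by class. Oas2 stands highest at 5.54 and Iigp1 lowest at -1.48.

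On the scale shared by both cell types, Ifi44 was at 131 to 431 (median 201) in macrophages and 2.30 to 20.2 (median 10.1) in hepatocytes (normalised CPM), without overlap. Its log2 fold change was 4.36 (adjusted p = 2.97e-19, SE 0.182). Ifi27l2a, which encodes a small interferon-induced membrane protein, was at 55.6 to 272 (median 136) in macrophages and 0 to 19.3 (median 4.09) in hepatocytes, and its log2 fold change was 5.06 (adjusted p = 1.15e-16, SE 0.307). Neither gene's macrophage libraries came down to the highest hepatocyte library. Oas2, an enzyme whose product activates RNase L, had a log2 fold change of 5.54 (adjusted p = 2.88e-17, SE 0.369) and Gbp4 one of 4.43 (adjusted p = 1.79e-17, SE 0.28). Irf1 was also higher in macrophages, at 356 to 955 (median 573) in macrophages and 66.2 to 243 (median 123) in hepatocytes, with a log2 fold change of 2.23 (adjusted p = 8.2e-15, SE 0.147).

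The genes that were lower in macrophages included the GTPase Iigp1, which damages the membranes of pathogen vacuoles. It was at 73.3 to 355 (median 233) in macrophages and 282 to 1252 (median 563) in hepatocytes, with a log2 fold change of -1.48 (adjusted p = 3.65e-08, SE 0.195), and the ranges overlapped. Ifi27, a relative of Ifi27l2a, was at 62.3 to 130.4 (median 88.5) in macrophages and 92.2 to 267 (median 184) in hepatocytes and had a log2 fold change of -1.02 (adjusted p = 9.1e-11, SE 0.101). Ifitm3, which blocks the fusion of virus and host membranes, had -0.60 (adjusted p = 5.95e-05, SE 0.123). Bst2, the virus-tethering protein tetherin, had -0.59 (adjusted p = 0.0329, SE 0.247), a call that was lost in the second file series alone (-0.34) and without control mouse 15 (hepatocytes, CCl4) or control mouse 11 (macrophages, CCl4) or KO mice 20 or 21 (macrophages, no CCl4) or KO mouse 18 (macrophages, CCl4), at -0.56 to -0.53. Over its 44 alternatives the adjusted p of Bst2 ranged from 0.00128 to 0.317. Ifit1, Irgm2, Igtp, Stat2 and 5 others were not called, with log2 fold changes of -0.29 to 0.32. With each mouse as a replicate block, in the 15 mice with both libraries, 33 genes were called.

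**Figure D2:**
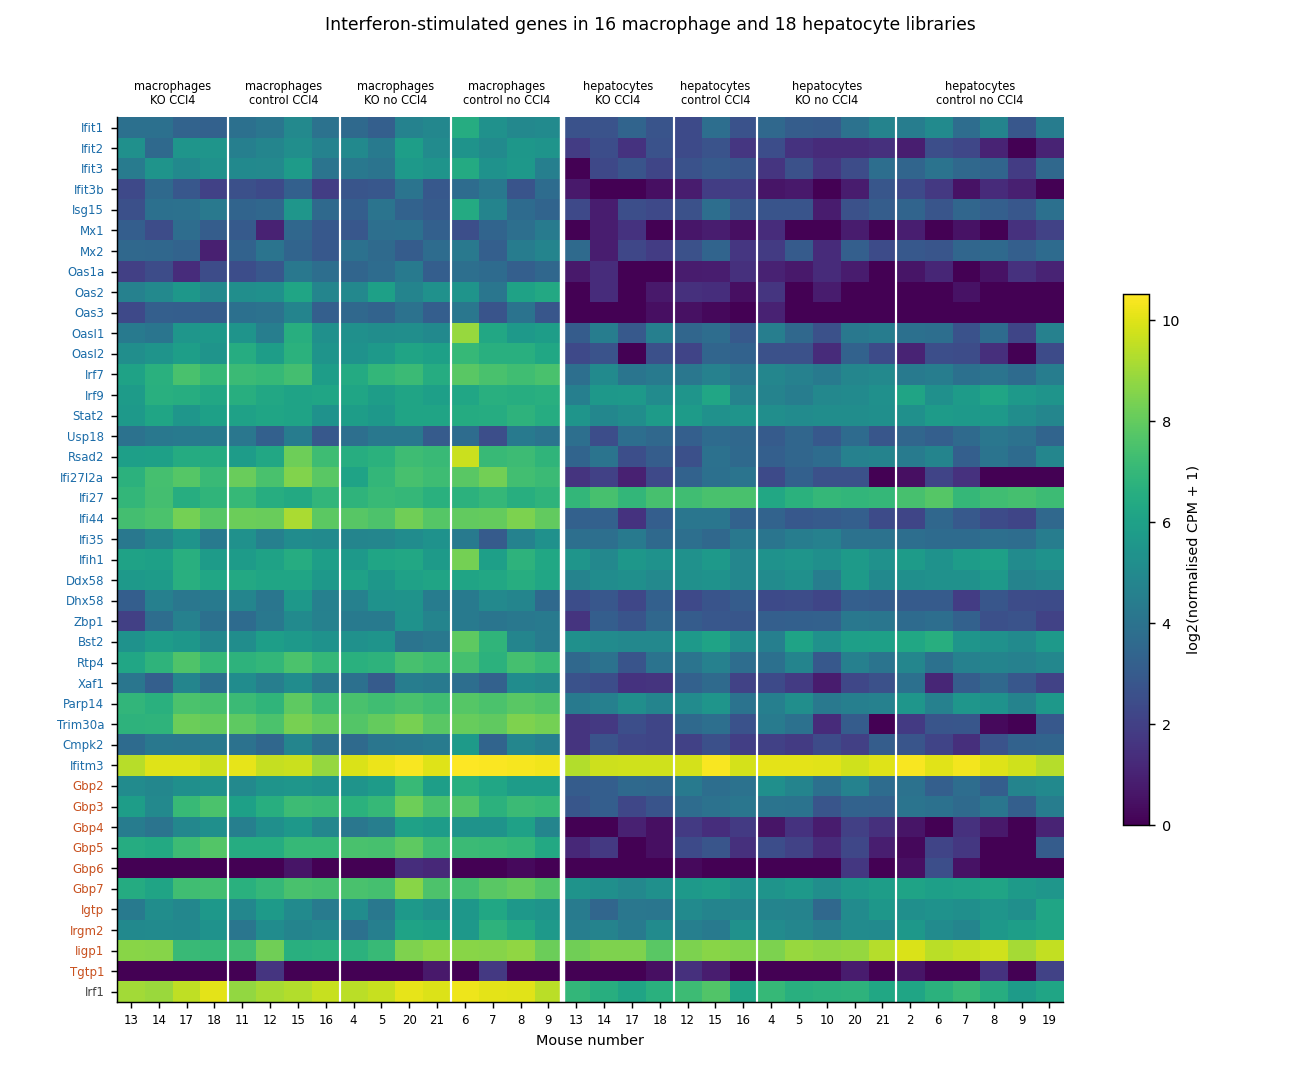
Colour gives log2(normalised CPM + 1) for each of the 43 genes (rows, GTPase names in orange, Irf1 in black, type I names in blue) in each library (columns, by mouse number), with macrophage libraries left of hepatocyte libraries and normalisation within each cell type. Oas2, Trim30a and Ifi44 are brighter in every macrophage library than in every hepatocyte library, and mouse 6 stands out among macrophages without CCl4 for Oasl1 and Rsad2.

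In control hepatocytes, CCl4 split the list. Ifi27l2a, Ifi44 and Oasl2 rose, and Iigp1, Irgm2 and Ifit1 fell, so that 3 of the 33 genes that passed the filter were called in each direction. Over all 9679 genes tested, 13.7% were called higher and 13.7% lower, so the share of ISGs called was not above that background. The GTPases all had negative log2 fold changes (6 of 6 tested, -1.04 to -0.00095, median -0.48), whereas 10 of 26 type I genes were positive (median -0.12), and the median over all genes was -0.0079. Each of the 3 genes that rose was called higher in macrophages than in hepatocytes, as were 28 of the 41 ISGs in the joint fit. None of the 3 that fell was, and a link between the 2 comparisons was not tested. The 10 genes left out by the filter were Ifit2, Ifit3b, Mx1, Oas1a, Oas2, Oas3, Gbp4, Gbp5, Gbp6 and Tgtp1.

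Iigp1 had 348, 404 and 364 normalised CPM in the 3 control hepatocyte libraries after CCl4, against 541 to 967 (median 755) in the 6 without it. All 3 injured livers lay below all 6 uninjured ones, and the log2 fold change was -1.04 (adjusted p = 0.00118, SE 0.217). The call was lost in 1 of 19 alternatives, the second file series alone, where the value was -0.81 (adjusted p over the alternatives 2.02e-05 to 0.22). Irgm2 had 22.3, 18.9 and 39.3 normalised CPM after CCl4, against 26.2 to 70.02 (median 47.6) without it. The groups overlapped, and the log2 fold change was -0.81 (adjusted p = 0.0368, SE 0.282). Its call was lost in 12 of 19 alternatives, among them fitting just the second series (-0.41) and leaving out any one of control mice 2, 8, 9 or 19 (no CCl4) or control mice 12 or 15 (CCl4), at -0.77 to -0.61 (adjusted p over the alternatives 0.00865 to 0.605). Igtp, which overlaps Irgm2 on the same strand of chromosome 11, had 31.8, 25.6 and 25.5 after CCl4 and 36.5 to 72.1 (median 38.6) without it, with no overlap, but was not called (log2 fold change -0.66, adjusted p = 0.103, SE 0.295). Gbp2 had 19.1, 13.1 and 14.5 after CCl4 and 7.86 to 30.8 (median 13.6) without it, with overlap (log2 fold change -0.00, adjusted p = 0.999, SE 0.479). How reads shared by such genes, or by near-identical copies such as Ifit3 and Ifit3b or Tgtp1 and Tgtp2, were counted is not given in the sources used here, so their split is uncertain.

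Ifit1 had 4.20, 12.8 and 5.32 normalised CPM in control hepatocytes after CCl4, against 6.31 to 31.7 (median 20.6) without it. The injured libraries were mostly lower with some overlap, and the log2 fold change was -1.35 (adjusted p = 0.0209, SE 0.422). Without control mouse 15 (CCl4) it was -2.06. The call was lost in 5 of 19 alternatives, including the second series alone (-1.78) and the omission of any one of control mouse 8 (no CCl4) or control mice 12 or 16 (CCl4), at -1.19 to -1.05 (adjusted p over the alternatives 0.00556 to 0.189).

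Ifi27l2a had 8.96, 13.9 and 15.6 normalised CPM in control hepatocytes after CCl4. Without CCl4 it had 0 to 3.52 (median 0.173), with 14 counts in the 6 libraries together and 3 libraries at 0. Every injured library lay above every uninjured one, and the log2 fold change was 3.95 (adjusted p = 3.2e-05, SE 0.618). The value was 4.90 without control mouse 7. The call was kept in all 19 alternatives, with log2 fold changes of 3.57 to 4.90 and adjusted p of 2.36e-07 to 0.0413. Ifi44 had 16.6, 16.3 and 8.86 after CCl4, against 3.61 to 10.6 (median 5.50) without it, with overlap and a log2 fold change of 1.29 (adjusted p = 0.00811, SE 0.345). With just the second series, which holds 1 injured control library, Ifi44 stood at 0.18 and was not called. Its call was also lost, at 1.15, with the conflicting labels moved to KO (adjusted p over 19 alternatives 0.00389 to 0.913). Oasl2, an OAS-like protein, had 3.43, 9.71 and 8.86 after CCl4 and 0 to 4.69 (median 2.97) without it, with a log2 fold change of 1.54 (adjusted p = 0.0368, SE 0.536). Its groups overlapped, and its call was lost in 11 of 19 alternatives, among them leaving out any one of control mice 2, 8 or 9 (no CCl4) or control mice 15 or 16 (CCl4), at 1.21 to 1.44 (adjusted p over the alternatives 0.0169 to 0.327).

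Between these groups the marker sums of Kupffer cells and hepatocytes did not overlap, and those of the other cell types examined did. The sum of 9 Kupffer cell markers in hepatocyte libraries was 248 to 303 normalised CPM in injured controls and 6.80 to 169 in uninjured controls, where 1 of the 9 markers was at 0 in every library. The sum of 7 monocyte markers was 27.02 to 29.9 and 2.60 to 30.8 in the same groups, and that of 6 endothelial markers 69.4 to 156 and 11.7 to 160. The sum of 6 stellate cell and fibroblast markers was 266 to 731 and 12.7 to 318. The sum of 8 hepatocyte markers was 51892 to 75899 in injured controls and 79719 to 112970 in uninjured ones. The part of other cells in the ISG values was not tested, and in bulk libraries fewer cells of a type and less RNA per cell cannot be told apart.

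**Figure D3:**
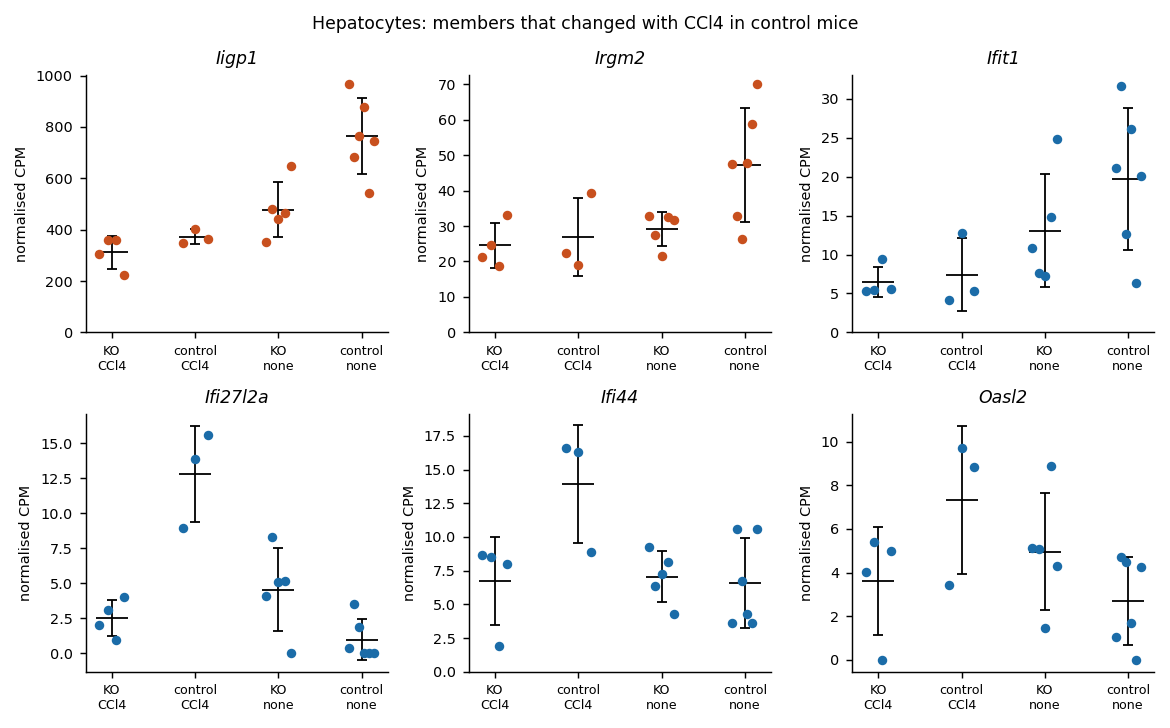
Points are normalised CPM of 6 genes in single hepatocyte libraries by group, with the group mean (dash) and SD (bar), n = 4, 3, 5 and 6 from left to right. Iigp1 sits at 348 to 404 in control livers after CCl4, below the 541 to 967 of control livers without it, while Ifi27l2a is highest in control livers after CCl4.

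Other well-known type I genes and Irf1 were not called in control hepatocytes after CCl4. Isg15, the ubiquitin-like modifier, had 5.15, 12.9 and 6.03 normalised CPM after CCl4 and 5.87 to 13.8 (median 8.80) without it, with overlap (log2 fold change -0.14, adjusted p = 0.827, SE 0.372). Ifit3, a partner of Ifit1, had 5.34, 6.79 and 6.03 after CCl4 and 2.71 to 15.3 (median 10.2) without it (log2 fold change -0.69, adjusted p = 0.264, SE 0.437). Irf7, which amplifies interferon alpha production, had 16.8, 23.5 and 16.7 after CCl4 and 11.7 to 21.2 (median 17.3) without it (log2 fold change 0.19, adjusted p = 0.63, SE 0.247). All 3 genes overlapped between the groups. Stat2, a subunit of the type I transcription complex, had 53.6, 39.5 and 42.2 after CCl4 and 27.6 to 53.99 (median 43.7) without it (log2 fold change 0.08, adjusted p = 0.819, SE 0.21). Ifitm3 had 914, 1359 and 918 after CCl4 and 648 to 1384 (median 1051) without it (log2 fold change 0.02, adjusted p = 0.962, SE 0.212). Bst2 had 51.1, 67.1 and 34.7 after CCl4 and 31.6 to 95.1 (median 46.3) without it (log2 fold change -0.10, adjusted p = 0.853, SE 0.325). These 3 genes overlapped between the groups as well. Irf1 had 149, 199.97 and 72.3 after CCl4 and 53.2 to 133 (median 82.3) without it, with a log2 fold change of 0.67 (adjusted p = 0.076, SE 0.274). Its value turned to -0.047 in the second file series alone.

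Biliary loss of Yap and Taz without injury went with lower Iigp1, Irf9 and Ifi27 and higher Ifi27l2a in hepatocytes. These 4 genes were called among 33 tested, and the test called 4.64% of all genes higher and 3.23% lower in KO hepatocytes. Iigp1 had 350.4, 482, 440.4, 466 and 646 normalised CPM in KO hepatocytes, against 541 to 967 (median 755) in control hepatocytes. Only the library of mouse 21 reached the control range, and the log2 fold change was -0.68 (adjusted p = 0.0254, SE 0.18). Irf9, the DNA-binding subunit of the type I complex, had 25.2, 21.01, 28.9, 31.8 and 37.7 in KO and 37.6 to 71.1 (median 51.3) in control hepatocytes. These ranges touched at the library of mouse 21, and the log2 fold change was -0.94 (adjusted p = 0.0361, SE 0.268). Ifi27 had 79.1, 106, 126, 121 and 129 in KO and 128 to 215 (median 164) in control hepatocytes, with a log2 fold change of -0.56 (adjusted p = 0.0396, SE 0.164). Ifi27l2a had 4.11, 8.28, 5.05, 5.18 and 0 in KO hepatocytes, where mouse 21 was at 0, and 0 to 3.52 (median 0.173) in control hepatocytes (log2 fold change 2.51, adjusted p = 0.0319, SE 0.713).

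None of these 4 calls was kept with the file series as a term, in the second series alone or without the KO libraries of mice 4 and 5. With the series as a term the log2 fold change was -0.52 for Iigp1, -0.47 for Irf9, -0.65 for Ifi27 and 2.15 for Ifi27l2a. Just the second series gave -0.48, -0.60, -0.68 and 2.07 in the same order. Without mice 4 and 5 the values were -0.56, -0.75, -0.40 and 2.12 in that order. The value of Ifi27l2a was 3.43 without control mouse 7. Leaving out 1 library ended the call of Iigp1 for control mice 2 or 8 (no CCl4) or KO mice 4, 5 or 20 (no CCl4) (at -0.68 to -0.58) and that of Irf9 for control mice 2, 7 or 8 (no CCl4) or KO mice 4, 5, 10 or 20 (no CCl4) (at -0.97 to -0.84). It ended the call of Ifi27 for control mice 2, 6, 8 or 9 (no CCl4) or KO mice 4, 5 or 20 (no CCl4) (at -0.59 to -0.46) and that of Ifi27l2a for control mice 2 or 8 (no CCl4) or KO mice 4, 5 or 20 (no CCl4) (at 2.105 to 2.57). Adjusted p over the alternatives ranged from 0.00442 to 0.395 for Iigp1, 0.0219 to 0.42 for Irf9, 0.0207 to 0.264 for Ifi27 and 0.0127 to 0.465 for Ifi27l2a. The Kupffer cell marker sum was 94.2 to 1060.4 normalised CPM in these KO libraries, highest in mice 4 and 5, against 6.80 to 169 in controls, and 1 marker was at 0 throughout each group. Its part in the result was not tested. GTPases had a median log2 fold change of -0.52 (5 of 6 negative) and type I genes -0.17 (17 of 26 negative), against 0.0071 over all genes.

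After CCl4, no ISG was called between KO and control hepatocytes in edgeR, and DESeq2 called none either. At an unadjusted p under 0.05 there were 7 genes, all lower in KO. Over all genes 0.124% were called higher and 0.0517% lower at the adjusted threshold. The share of all genes at an unadjusted p under 0.05 was not counted, so the 7 have no background here. Gbp3 had 6.01, 7.74, 3.75 and 5.64 normalised CPM in KO hepatocytes and 12.2, 14.6 and 16.3 in control hepatocytes, without overlap (log2 fold change -1.29, adjusted p = 0.16, SE 0.342). Ifi27l2a had 2.00, 3.10, 0.938 and 3.98 in KO and 8.96, 13.9 and 15.6 in control hepatocytes, also without overlap (log2 fold change -2.16, adjusted p = 0.178, SE 0.624). In a fit of these 2 groups alone Ifi27l2a was called (log2 fold change -2.19). The second control value of each gene is that of mouse 15, whose other label states KO. With that library left out the log2 fold change was -1.27 for Gbp3 and -2.08 for Ifi27l2a. With it moved to KO the values were -0.76 and -0.96, and the groups overlapped for both genes. Neither gene was called in either case. All 6 GTPases tested had negative log2 fold changes (median -0.60), as did 19 of 26 type I genes (median -0.28), against 0.0076 over all genes. Libraries of Isg15, Ifi44, Gbp2, Igtp, Trim30a and Ifitm3 did not overlap either, each lower in KO, with log2 fold changes of -1.67 to -0.40, none called. The share of all genes without overlap between these groups of 4 and 3 libraries was not counted, so these ISGs have no background to be read against. The Kupffer cell marker sum was 107 to 204 in KO hepatocytes after CCl4 and 248 to 303 in control hepatocytes after CCl4, and its part was not tested.

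In KO hepatocytes CCl4 lowered 2 GTPases, Gbp2 and Iigp1, and raised no ISG past the threshold. These were 2 of 33 ISGs tested. The test called 7.02% of all genes higher and 6.84% lower, so the share of lower ISGs was not above that background. Gbp2, a guanylate-binding protein, had 7.35, 7.74, 11.3 and 10.3 normalised CPM after CCl4, against 36.99, 25.5, 13.7, 24.4 and 11.99 in KO hepatocytes without it. The groups did not overlap, and the log2 fold change was -1.32 (adjusted p = 0.0309, SE 0.398). The value was -0.87 without the libraries of mice 4 and 5, and the call was also lost without any one of KO mice 13, 14 or 18 (CCl4) or KO mice 4, 5 or 20 (no CCl4), at -1.40 to -1.05 (adjusted p over 19 alternatives 0.0205 to 0.236). Iigp1 had 305, 361, 360.3 and 225 after CCl4 and 350.4, 482, 440.4, 466 and 646 without it, and the groups overlapped at their edge (log2 fold change -0.61, adjusted p = 0.0458, SE 0.2). That call was lost in 14 of 19 alternatives, among them leaving out any one of KO mice 13, 14, 17 or 18 (CCl4) or KO mice 5, 10, 20 or 21 (no CCl4), at -0.69 to -0.46 (adjusted p 0.0222 to 0.171). The Kupffer cell marker sum was 107 to 204 normalised CPM after CCl4 and 94.2 to 1060.4 without it. In KO mice 4, 5, 10, 20 and 21 without CCl4 it was 1060.4, 579, 132, 190 and 94.2, in the order of the Gbp2 values above. Among uninjured controls, Gbp2 was highest in mice 9 and 19, at 26.2 and 30.8, where the Kupffer cell marker sums were 12.6 and 169. The endothelial marker sum was 36.6 to 78.6 after CCl4 and 53.98 to 297 without it, and the part of either in these changes was not tested. The 6 GTPases tested were all negative (median -0.70), and 19 of 26 type I genes were (median -0.26), against -0.018 over all genes.

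The same genes were also followed in KO hepatocytes, in normalised CPM. Isg15 had 4.01, 0.774, 4.69 and 3.98 in KO hepatocytes after CCl4 and 5.65, 5.73, 0.722, 5.18 and 7.71 in KO hepatocytes without it, a log2 fold change of -0.53 that was not called. Ifit3 had 0, 3.87, 5.63 and 3.65 in KO hepatocytes after CCl4 and 2.06, 5.09, 2.17, 4.44 and 12.9 in KO hepatocytes without it, a log2 fold change of -0.64 that was not called. Irf7 had 13.4, 31.8, 15.9 and 18.9 in KO hepatocytes after CCl4 and 27.2, 23.6, 18.8, 27.4 and 29.99 in KO hepatocytes without it, a log2 fold change of -0.35 that was not called. The groups overlapped for Isg15, Ifit3 and Irf7. Stat2 had 43.4, 27.9, 34.7 and 53.7 in KO hepatocytes after CCl4 and 35.5, 32.5, 34.7, 34.8 and 36.8 in KO hepatocytes without it, a log2 fold change of 0.22 that was not called. Ifitm3 had 632, 849.5, 876 and 859 in KO hepatocytes after CCl4 and 1088, 1098, 1048, 875 and 1025 in KO hepatocytes without it, a log2 fold change of -0.35 that was not called. Bst2 had 37.4, 32.5, 29.1 and 29.2 in KO hepatocytes after CCl4 and 22.1, 66.9, 38.98, 59.97 and 62.5 in KO hepatocytes without it, a log2 fold change of -0.64 that was not called. The groups overlapped for Stat2, Ifitm3 and Bst2. Irf1 had 124, 95.3, 70.4 and 102 in KO hepatocytes after CCl4 and 133, 98.1, 106, 110.3 and 75.4 in KO hepatocytes without it, a log2 fold change of -0.09 that was not called. Igtp had 20.04, 10.1, 16.9 and 16.6 in KO hepatocytes after CCl4 and 25.7, 24.8, 10.8, 32.6 and 46.3 in KO hepatocytes without it, a log2 fold change of -0.80 that was not called. The groups overlapped for Irf1 and Igtp.

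The CCl4 response differed between genotypes for Ifi27l2a alone among the 33 ISGs tested in hepatocytes. The difference of the log2 fold changes, KO minus control, was -4.67 (adjusted p = 0.0393, SE 0.949). Over all genes, 0.0207% were called higher and 0.196% lower. The call was lost in 17 of 27 alternatives, including the second series alone (-4.54) and without mice 4 and 5 (-4.30). Control mouse 15 (CCl4) has a second label that states KO. With its library moved to KO the value was -3.46, also not called. The call was lost as well without any one of control mice 2, 8 or 9 (no CCl4) or control mice 15 or 16 (CCl4) or KO mice 13, 14, 17 or 18 (CCl4) or KO mice 4, 5 or 20 (no CCl4), at -5.10 to -4.28. Without control mouse 7 (no CCl4) the value was -5.60. Its adjusted p over the alternatives ranged from 0.00429 to 0.506. The GTPases showed no called difference, with a median of -0.10, against 0.04 for type I genes and 0.018 for all genes.

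**Figure D4:**
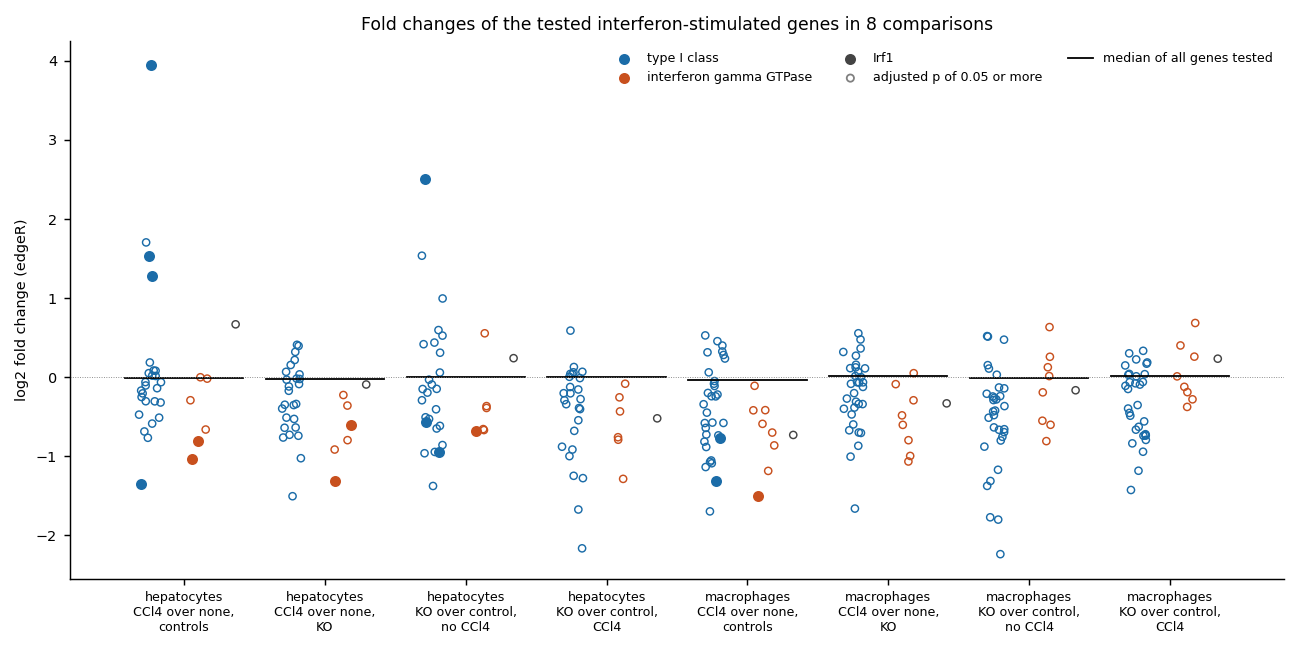
Each point is the log2 fold change of 1 tested ISG in 1 of 8 comparisons (33 genes in hepatocytes, 41 in macrophages), filled where the adjusted p was under 0.05, with the median of all genes tested as a black line. GTPases (orange) lie at or below 0 for CCl4 in control and KO hepatocytes and for CCl4 in control macrophages, and type I genes (blue) spread to both sides.

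In control macrophages CCl4 lowered Irgm2, Ifitm3 and Ifit1, and no ISG rose past the threshold. These were 3 of 41 tested, where the test called 6.77% of 10815 genes higher and 6.39% lower, so the share of lower ISGs was close to the background. All 8 GTPases tested were negative (median -0.65), 24 of 32 type I genes were negative (median -0.40), and the median over all genes was -0.033. Irgm2 had 16.4, 33.2, 25.7 and 29.1 normalised CPM after CCl4, against 48.3, 109.9, 80.4 and 49.2 without it. Every injured library lay below every uninjured one, and the log2 fold change was -1.50 (adjusted p = 0.022, SE 0.41). Ifitm3 had 1128, 773, 807 and 463 after CCl4, against 1467, 1388, 1322 and 1242 without it, again without overlap (log2 fold change -0.77, adjusted p = 0.0394, SE 0.238). Ifit1 had 13.9, 16.6, 29.9 and 14.6 after CCl4, against 89.2, 39.03, 29.1 and 31.9 without it. The uninjured library of mouse 6 was far above the rest, the groups overlapped slightly, and the log2 fold change was -1.31 (adjusted p = 0.0461, SE 0.419).

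The Irgm2 call was lost in the second series alone (-1.24) and without any one of control mice 11 or 15 (CCl4) or control mouse 7 (no CCl4), at -1.51 to -1.23 (adjusted p over 18 alternatives 0.00089 to 0.116). Ifitm3 lost its call without any one of control mice 6, 7, 8 or 9 (no CCl4) or control mice 12, 15 or 16 (CCl4), at -0.81 to -0.58, and was called in the second series alone at -1.001 (adjusted p 0.0155 to 0.133). Ifit1 lost its call in the second series alone (-1.35) and without any one of control mice 11, 12 or 16 (CCl4) or control mice 6 or 7 (no CCl4), at -1.39 to -0.81 (adjusted p 0.0164 to 0.207). Hepatocyte markers summed to 368 to 14205 normalised CPM in macrophage libraries of injured controls and 15879 to 20349 in those of uninjured controls, none of the 8 at 0 throughout a group. Monocyte markers summed to 709 to 935 and 229.9 to 804, and Kupffer cell markers to 7042 to 13254 and 12668 to 16936, in the same groups. The sum of 6 endothelial markers was 382 to 1102 in injured and 1297 to 1777 in uninjured controls. Their part in the ISG values was not tested.

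**Figure D5:**
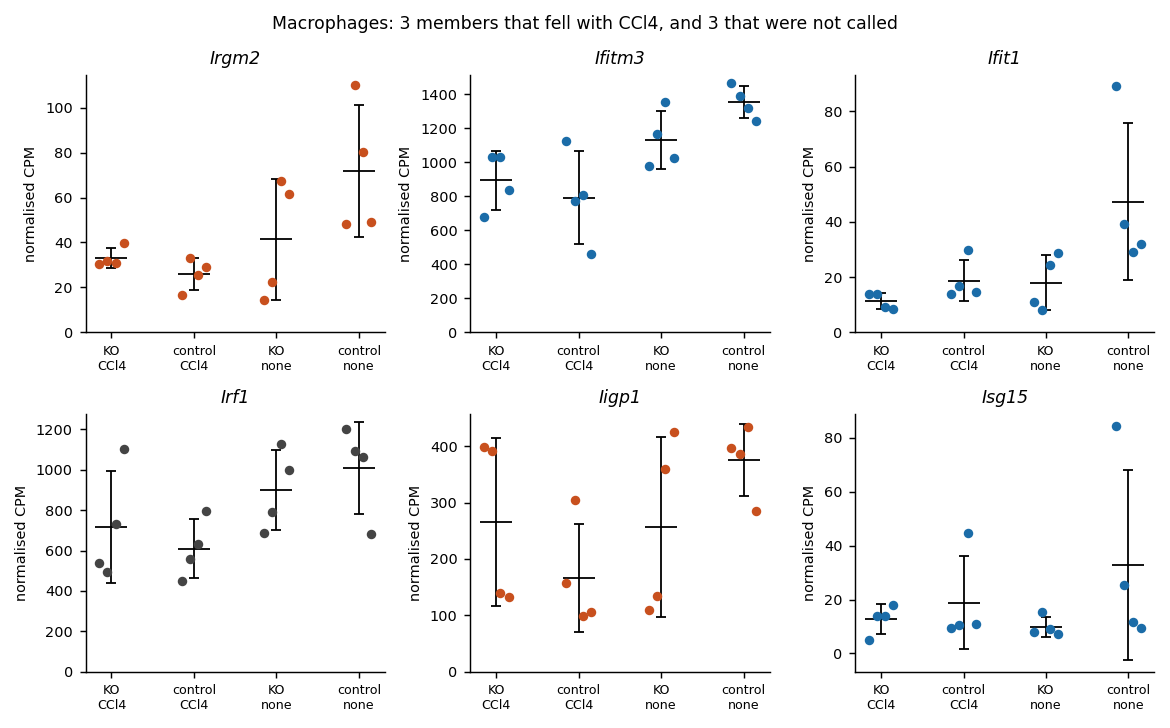
Points are normalised CPM of 6 genes in single macrophage libraries by group (n = 4 each), with the group mean (dash) and SD (bar). Irgm2 and Ifitm3 are lower in every injured control library than in every uninjured one, and Isg15 and Ifit1 are high in 1 uninjured control library.

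Other genes of the list were not called in control macrophages after CCl4. Iigp1 had 158, 304, 98.00 and 106 normalised CPM after CCl4 and 398, 386, 433 and 286 without it, overlapping in 1 library (log2 fold change -1.19, adjusted p = 0.119, SE 0.486). Irf1 had 449, 560.3, 632 and 796 after CCl4 and 1203, 1092, 1063 and 681 without it, with overlap (log2 fold change -0.73, adjusted p = 0.083, SE 0.272). Gbp2 had 30.4, 42.5, 44.5 and 40.1 after CCl4 and 99.3, 74.9, 55.98 and 55.2 without it, without overlap (log2 fold change -0.86, adjusted p = 0.0767, SE 0.314). Stat2 was also lower in each injured library, at 63.5, 71.6, 68.7 and 40.1 after CCl4, against 88.5, 90.8, 111 and 89.8 without it (log2 fold change -0.64, adjusted p = 0.0582, SE 0.217). Igtp had 28.2, 52.9, 31.97 and 20.03 after CCl4 and 46.3, 76.5, 48.3 and 43.2 without it, with overlap (log2 fold change -0.70, adjusted p = 0.186, SE 0.343). Isg15 had 9.60, 10.4, 44.5 and 10.9 after CCl4 and 84.5, 25.5, 11.7 and 9.49 without it, with overlap (log2 fold change -0.74, adjusted p = 0.471, SE 0.627). Irf7 had 143, 131, 164 and 56.4 after CCl4 and 227, 178, 156 and 182 without it (log2 fold change -0.58, adjusted p = 0.223, SE 0.306). Bst2 had 34.4, 58.1, 50.8 and 40.1 after CCl4 and 239, 116, 26.9 and 19.9 without it (log2 fold change -1.14, adjusted p = 0.223, SE 0.594). Ifit3 had 31.3, 30.1, 52.9 and 15.5 after CCl4 and 85.2, 40.6, 47.4 and 22.4 without it (log2 fold change -0.57, adjusted p = 0.403, SE 0.431). All 3 overlapped between the groups.

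One uninjured control macrophage library, that of mouse 6, carried the highest values of several antiviral genes. Oasl1 was at 471, 77.3, 51.1 and 56.96 normalised CPM in the uninjured control macrophages of mice 6, 7, 8 and 9. Rsad2, the antiviral enzyme viperin, was at 811, 135, 149 and 117. Ifih1, the RNA sensor MDA5, was at 321, 59.7, 110.2 and 76.8. In each case the library of mouse 6 was far above the other 3, and these genes were chosen after their values were seen.

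Genotype changed no ISG past the threshold in macrophages. Without CCl4 edgeR and DESeq2 called none of 41, and edgeR called 0.0555% of all genes higher and 0.111% lower. At an unadjusted p under 0.05 there were 12 ISGs in edgeR, without a share of all genes to set beside them. Ifit1 had 11.1, 8.19, 24.3 and 28.6 normalised CPM in KO macrophages and 89.2, 39.03, 29.1 and 31.9 in control macrophages, without overlap (log2 fold change -1.37, adjusted p = 0.182, SE 0.423). Oasl2 had 39.9, 49.2, 69.6 and 62.4 in KO and 131, 97.99, 99.6 and 75.95 in control macrophages, without overlap (log2 fold change -0.88, adjusted p = 0.189, SE 0.274). Gbp5 pointed the other way, with 179.7, 175, 239 and 149 in KO and 142, 134, 123 and 79.4 in control macrophages (log2 fold change 0.63, adjusted p = 0.368, SE 0.275). Libraries of Oasl1, Irf7, Irf9, Stat2, Ddx58 and Parp14 did not overlap either, each lower in KO, with log2 fold changes of -2.24 to -0.29, none called. The highest KO and lowest control library were close for Parp14 (182 and 183.2) and Ddx58 (68.9 and 69.8). How many of all genes tested did not overlap was not counted, so this list has no background. Type I genes had a median log2 fold change of -0.43 (26 of 32 negative) and GTPases of -0.09 (4 of 8 negative), against -0.008 over all genes. With no filter on low counts, 6 genes were called lower in KO, namely Oasl1, Bst2, Rsad2, Isg15, Ifih1 and Ifit1. Among the 8 uninjured libraries all 6 genes were highest in that of control mouse 6. The log2 fold change of Oasl1 was -2.24 with the filter and -2.19 without it.

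After CCl4, none of 41 ISGs was called between KO and control macrophages by edgeR or DESeq2. Of all genes, 0.00925% were called higher and 0.0555% lower. An unadjusted p under 0.05 was reached by 5 ISGs, a count without a background over all genes. Oas1a had 2.95, 4.41, 1.55 and 4.48 normalised CPM in KO and 4.65, 6.23, 17.3 and 12.7 in control macrophages, without overlap (log2 fold change -1.43, adjusted p = 0.498, SE 0.526). Its KO values were 3, 6, 1 and 10 counts, and the highest KO and lowest control library were close (4.48 and 4.65). Iigp1 had 398, 392, 139.8 and 133 in KO and 158, 304, 98.00 and 106 in control macrophages. It was high in KO mice 13 and 14, whose macrophage libraries held hepatocyte marker sums of 29959 and 24770 normalised CPM, and low in mice 17 and 18, with 2763 and 2609. In uninjured KO macrophages, by contrast, Iigp1 was at 109, 134, 359 and 426 where the hepatocyte marker sums were 8343, 13469, 3914 and 5158. The part of hepatocyte RNA in these values was not tested.

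In KO macrophages CCl4 changed none of 41 ISGs past the threshold in edgeR or DESeq2. Of all genes, 0.767% were called higher and 0.111% lower. The 5 ISGs at an unadjusted p under 0.05 have no such share beside them. Gbp2 had 32.4, 27.9, 37.3 and 39.5 after CCl4 and 42.8, 54.3, 134 and 57.8 without it, with no overlap (log2 fold change -1.07, adjusted p = 0.159, SE 0.323). GTPases were negative in 7 of 8 cases (median -0.54) and type I genes in 20 of 32 (median -0.10), against 0.016 over all genes. No ISG had a called interaction of genotype and CCl4 in macrophages in edgeR or DESeq2. Called genes made up 0.0647% (higher) and 0.129% (lower) of all genes. For the 4 ISGs at an unadjusted p under 0.05, the share over all genes was not counted.

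For the remaining genes followed here, KO macrophages gave the following normalised CPM, and none was called. Isg15 had 4.91, 13.96, 13.98 and 17.9 after CCl4 and 7.81, 15.4, 8.90 and 7.15 without it, a log2 fold change of 0.48. Ifit3 had 19.7, 42.6, 31.1 and 39.5 after CCl4 and 17.3, 15.4, 50.2 and 42.2 without it, a log2 fold change of 0.11. Irf7 had 64.9, 101, 180.2 and 133 after CCl4 and 84.7, 124, 142 and 91.6 without it, a log2 fold change of 0.11. The groups overlapped for Isg15, Ifit3 and Irf7. Stat2 had 51.1, 71.3, 45.05 and 61.9 after CCl4 and 57.2, 48.1, 69.6 and 70.2 without it, a log2 fold change of -0.08. Ifitm3 had 676, 1029, 1033 and 837 after CCl4 and 977, 1168, 1356 and 1024 without it, a log2 fold change of -0.34. Bst2 had 40.3, 55.1, 46.6 and 28.2 after CCl4 and 39.5, 41.98, 15.4 and 17.5 without it, a log2 fold change of 0.56. The groups overlapped for Stat2, Ifitm3 and Bst2. Irf1 had 538, 492, 730.1 and 1101 after CCl4 and 688, 791, 1126 and 998 without it, a log2 fold change of -0.33. Igtp had 18.7, 34.5, 27.96 and 47.5 after CCl4 and 33.7, 17.4, 49.3 and 38.99 without it, a log2 fold change of -0.09. Irgm2 had 30.5, 31.6, 31.1 and 39.9 after CCl4 and 14.4, 22.5, 67.1 and 61.7 without it, a log2 fold change of -0.29. The groups overlapped for Irf1, Igtp and Irgm2.

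The CCl4 response in controls differed between the cell types for Ifi27l2a and Irf1, with a lower log2 fold change in macrophages than in hepatocytes. For Ifi27l2a the log2 fold change was 0.31 in macrophages, not called, and 3.95 in hepatocytes. The difference of the log2 fold changes, macrophages minus hepatocytes, was -3.62 (adjusted p = 0.00601, SE 0.783) for Ifi27l2a and -1.42 (adjusted p = 0.033, SE 0.398) for Irf1. The median of this difference over all 12052 genes was -0.197, below which both values lie, and 1.1% of genes were called higher and 3.9% lower. Ifi27l2a had 273, 178, 364 and 227 normalised CPM in control macrophages after CCl4 and 229, 308, 160.5 and 144 without it, with overlapping groups. With each mouse as a replicate block the difference was -3.49 for Ifi27l2a and -1.14 for Irf1, and neither was called (adjusted p = 0.0521 and 0.171). That fit held only mice with both libraries. It left out control mice 2 and 19 (hepatocytes, no CCl4) and control mouse 11 (macrophages, CCl4), so the part of the pairing alone was not tested. A fit of just the second series gave -3.71 and -0.57, also without a call. Without the hepatocytes of control mouse 7 (no CCl4) Ifi27l2a was at -4.50. Irf1 lost its call without any one of control mice 2 or 9 (hepatocytes, no CCl4) or control mice 12 or 15 (hepatocytes, CCl4) or control mice 11 or 12 (macrophages, CCl4) or control mouse 6 (macrophages, no CCl4) as well, at -1.39 to -1.08. Adjusted p over 27 alternatives ranged from 1.57e-05 to 0.206 for Ifi27l2a and 0.0125 to 0.726 for Irf1. For the KO response without CCl4, no difference between cell types was called for any ISG in edgeR, while DESeq2 called 3. In edgeR 0.0249% of genes were called higher and 0.199% lower. For the 9 ISGs at an unadjusted p under 0.05 the share over all genes was not counted.

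Genes upstream of the ISGs and their other targets were taken from short lists by role. Ligands were almost unread. None of 8 interferon genes had a row in the hepatocyte table, and in macrophages Ifnb1 had 14 counts in 2 libraries and Ifng 22 counts in 10. Of the receptors, Ifngr1, the ligand-binding chain of the interferon gamma receptor, moved in opposite directions. In hepatocytes it had 34.5 to 53.9 normalised CPM in injured and 10.8 to 20.6 in uninjured controls, a log2 fold change of 1.52 (adjusted p = 0.000119, SE 0.25). In macrophages it had 181 to 239 in injured and 397 to 439 in uninjured controls, a log2 fold change of -1.003 (adjusted p = 0.00553, SE 0.218). The groups did not overlap in either cell type, and the difference between the cell types was -2.56 (adjusted p = 7.48e-05, SE 0.335). These 3 Ifngr1 calls were kept in all 19, 18 and 27 alternatives tried for them, including the replicate block for the difference between cell types. Ifngr1 also rose with CCl4 in KO hepatocytes (log2 fold change 0.93, adjusted p = 0.0166, SE 0.251), a call that was lost without KO mice 14 or 18 (CCl4), at 0.84 to 0.91.

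Cxcl10, a chemokine that both interferons induce, followed the same pattern. It had 35.4 to 79.5 normalised CPM in injured and 5.30 to 23.5 in uninjured control hepatocytes (log2 fold change 2.42, adjusted p = 0.00144, SE 0.492), and 26.4 to 51.9 in injured and 63.9 to 730.5 in uninjured control macrophages (log2 fold change -2.90, adjusted p = 0.0125, SE 0.676). The groups did not overlap in either cell type, and the difference was -5.29 (adjusted p = 0.000552, SE 0.84). Fitting just the second series, the hepatocyte change was 1.53 and the difference -4.77, neither called. The macrophage change was called there (-3.22), but lost its call in 1 of 18 alternatives, the fit of its 2 groups alone (-2.85, adjusted p over the alternatives 9.63e-16 to 0.0619). Without control mouse 6 (no CCl4) it was -1.97, still called, and the difference was -4.36. Cxcl9, a chemokine induced mainly by interferon gamma, fell with CCl4 in KO hepatocytes (log2 fold change -1.39, adjusted p = 0.00749, SE 0.332), a call kept in all 19 alternatives.

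Among the other lists, Mavs, the adaptor of the RNA sensors, fell with CCl4 in control hepatocytes (log2 fold change -0.88, adjusted p = 0.00513, SE 0.222) and in control macrophages (log2 fold change -1.40, adjusted p = 0.00277, SE 0.277). The hepatocyte call was lost in the second series alone (-0.91), and the macrophage call was kept in all 18 alternatives. In control hepatocytes, where 13.7% of all genes were called higher and 13.7% lower, 2 of 5 receptors tested rose, 1 of 5 sensors and adaptors fell, none of 5 inhibitors was called, 1 of 8 antigen-processing genes fell and 1 of 3 chemokines rose. Besides those described, these were Il10rb (log2 fold change 1.02, adjusted p = 0.046, SE 0.374) and B2m, the light chain of MHC class I (log2 fold change -0.81, adjusted p = 0.0185, SE 0.249). The transcription factor Irf8 rose as well (log2 fold change 1.46, adjusted p = 0.0315, SE 0.486). Il10rb, Irf8 and B2m lost their calls in the second series alone, at 1.38, 1.79 and -0.82. Leaving out any one of control mice 2, 8 or 9 (no CCl4) or control mice 12, 15 or 16 (CCl4) ended the call of Il10rb (at 0.88 to 1.13), any one of control mice 2 or 8 (no CCl4) or control mice 12 or 15 (CCl4) that of Irf8 (at 1.31 to 1.47, and 2.16 with its call kept without control mouse 7) and any one of control mice 12 or 15 (CCl4) that of B2m (at -0.80 to -0.78).

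In KO hepatocytes, where CCl4 lowered 6.84% of all genes, it lowered 2 of 8 antigen-processing genes, Tapbp, the peptide-loading chaperone tapasin (log2 fold change -0.66, adjusted p = 0.0309, SE 0.199), and B2m (log2 fold change -0.80, adjusted p = 0.025, SE 0.232). Tapbp lost its call without any one of KO mice 13, 17 or 18 (CCl4) or KO mice 4 or 20 (no CCl4), at -0.64 to -0.54, and B2m without any one of KO mice 13, 14 or 18 (CCl4) or KO mice 10 or 21 (no CCl4), at -0.79 to -0.63. In control macrophages, where 6.39% of all genes were called lower, 2 of 6 inhibitors fell, Socs3, a feedback inhibitor of JAK kinases (log2 fold change -1.01, adjusted p = 0.04, SE 0.311), and Pias1, a SUMO ligase that restrains interferon signalling (log2 fold change -1.15, adjusted p = 0.0123, SE 0.283). Socs3 lost its call without any one of control mice 6, 7, 8 or 9 (no CCl4) or control mice 11, 15 or 16 (CCl4), at -1.08 to -0.74, and both lost it in the second series alone, at -0.69 and -0.86. None of 9 antigen-processing genes was called there. No gene of the lists described was called for genotype in either cell type by edgeR. Macrophages were higher than hepatocytes for 5 of 5 receptors tested, 6 of 8 signal transducers, 7 of 9 sensors and adaptors and 4 of 6 inhibitors. They were also higher for 7 of 9 antigen-processing genes and 2 of 3 chemokines, where 40.9% of all genes were called higher. Lower in macrophages were 2 signal transducers and 1 of the sensors and adaptors, where 33.8% of all genes were called lower.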

How the data were processed

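RNA was measured by QuantSeq 3′ FWD sequencing with 50-base reads in hepatocytes, isolated by low-speed centrifugation and sorted as propidium iodide-negative cells, and in macrophages sorted as F4/80+ CD45+ cells, per the labels' protocols. The authors deposited raw counts per gene symbol in 1 table per cell type. The submitters' processing notes name Trimmomatic 0.39, HISAT2 2.1.0 and GRCm38. Which counter, annotation and strand option were used is not given in the sources used here. Members and gene lists were chosen with earlier results of these data known.

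From these counts, edgeR 4.0.16 in R 4.3.3 gave quasi-likelihood tests with TMM scaling, edgeR's default expression filter, Benjamini-Hochberg adjustment over all genes tested and a threshold of 0.05. Each table was fitted with its 4 groups, and the 22586 genes in both tables were fitted jointly over 8 groups. The fits were also run on simulated independent libraries with planted changes, which held no file series, mouse pairs or reads of other cells. Normalised CPM was computed from the deposited counts within each table, or over both for levels set across cell types. The floor of 3 counts covers counting error only. SE is the standard error of the log2 fold change. The genes described with values per library were those called (up to 4 a class) and 10 well-known members, and Gbp3, Gbp5, Oas1a and Oasl2 in comparisons without calls were chosen after their values were seen. Libraries are separate mice. Libraries of the same mouse number come from the same animal, and deviations from the group means of the 15 pairs correlated at -0.106 to 0.315 (median 0.092). The mouse was therefore tried as a replicate block, in a joint fit of only the mice with both libraries. Library pairs within a group differed by 5.76 to 48.6 times counting noise (chi-square per degree of freedom). The alternatives were RLE scaling, no filter, DESeq2 1.42.0, fits of the contrast's groups alone, file series as a term or the second series alone, other handling of the conflicting labels, and leaving out each library. 2 alternatives, the legacy edgeR deviance and omission of libraries with the most reads of the other cells, were both chosen after seeing the data.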

Additional observations from a re-analysis of the deposited data

Results flagged for a closer look

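Groups of 4 to 10 libraries were examined for the well-known and called genes by Dixon's criterion, on log2(CPM + 1). Of 99 groups, 12 held a library far from the rest. The nominal rate of the criterion is about 1 in 20 groups. The genes share libraries and several flagged values rest on 3 counts or fewer, so 12 of 99 cannot be read against that rate. Values are normalised CPM.

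Among KO hepatocytes after CCl4, the mouse 17 library had Ifi44 at 1.88 (2 counts), Ifit1 at 9.38 (10 counts) and Oasl2 at 0. Ifi44 and Oasl2 were lowest there and Ifit1 was highest. In the same group Ifitm3 was lowest in mouse 13 at 632 and Isg15 lowest in mouse 14 at 0.774 (1 count). Among KO hepatocytes without CCl4, Ifi27l2a was at 0 in mouse 21 and Isg15 at 0.722 (1 count) in mouse 10, each apart from the rest. In hepatocytes of control mice without CCl4, Ifit3 was low in mouse 9 at 2.71 (3 counts) and Igtp was high in mouse 19 at 72.1. In macrophages, Irgm2 was high in KO mouse 18 after CCl4 at 39.9, Isg15 was high in control mouse 15 after CCl4 at 44.5, and Stat2 was high in control mouse 8 without CCl4 at 111.

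A response differed between groups in 3 tests of the difference itself (edgeR, adjusted over all genes), none of them called under every alternative. The CCl4 response of Ifi27l2a in hepatocytes was lower in KO than in control mice by a log2 difference of -4.67. The CCl4 response in controls was lower in macrophages than in hepatocytes for Ifi27l2a, at -3.62, and for Irf1, at -1.42. With the mouse as a replicate block the last 2 were -3.49 (adjusted p = 0.0521) and -1.14 (adjusted p = 0.171), neither called, and the hepatocyte difference lost its call in 17 of 27 alternatives.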

How the results depend on the processing

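Alternatives were run for 26 called fold changes of ISGs, which include 8 of the 32 calls of macrophages over hepatocytes. These 8 were the 4 lower calls and 4 of the 28 higher ones, Oas2, Ifi27l2a, Gbp4 and Ifi44. Those 4 higher genes had log2 fold changes of 4.36 to 5.54, against a median of 1.45 over all ISGs tested. The 8 lost their call in 7 of 352 alternative values. The other 18, for CCl4, KO and differences of responses, lost it in 149 of 370 (40.3%), and 0 of the 722 reversed. Since the higher genes among the 8 had large fold changes, these shares cannot be compared. The share of the 8 does not stand for the remaining cell-type calls. Among fold changes without a call, Irf1 for CCl4 in control hepatocytes turned to -0.047 in the second file series alone, Trim30a for KO hepatocytes without CCl4 to -0.026 without the libraries of mice 4 and 5, and Isg15 for KO hepatocytes after CCl4 to 0.19 with the conflicting labels moved to KO.

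Counts of ISGs called moved as follows, and the cause was not tested. For CCl4 in control hepatocytes (6 called), the second file series alone gave 1, conflicting labels moved to KO gave 3, and leaving out 1 library gave 3 to 8. For KO hepatocytes without CCl4 (4 called), the series as a term, the second series alone and leaving out mice 4 and 5 each gave 0, conflicting labels moved to KO gave 2, the contrast's groups alone gave 1, and leaving out 1 library gave 0 to 6. For KO hepatocytes after CCl4 (0 called), the contrast's groups alone gave 1. For CCl4 in KO hepatocytes (2 called), no filter, the second series alone, either handling of the conflicting labels, the contrast's groups alone, the legacy deviance and leaving out mice 4 and 5 each gave 1, and leaving out 1 library gave 0 to 3. The hepatocyte interaction (1 called) gave 0 in the second series alone, under either handling of the conflicting labels, with the legacy deviance and without mice 4 and 5, and 0 to 1 when leaving out 1 library. For CCl4 in control macrophages (3 called), no filter gave 7, of which 2 were among the 3, the second series alone, either handling of the conflicting labels and the contrast's groups alone each gave 1, and leaving out 1 library gave 1 to 2. No filter gave 6 for KO macrophages without CCl4 and 1 each for CCl4 in KO macrophages and the macrophage interaction, where 0 were called with it. Macrophages over hepatocytes (32 called) gave 31 to 34 throughout. For the CCl4 response between cell types (2 called), DESeq2 gave 4, the second series alone 0, either handling of the conflicting labels 1, the mouse as replicate block 0, and leaving out 1 library 1 to 6. Leaving out the macrophage libraries of mice 13 and 14 moved no count within macrophages by over 1.5 times. For the KO response between cell types (0 called), DESeq2 gave 3, the replicate block 0, and leaving out 1 library 0 to 1.

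Depth limits the low genes: 3 counts correspond to as much as 3.22 CPM in hepatocytes and 5.03 in macrophages. The second series alone leaves 1 injured control hepatocyte library, which is assumed to vary like the other groups. File series and genotype are partly confounded, since every KO library is in the second series.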
